A study of Mus musculus with 4 samples.

Results

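The genes described here encode the subunits of NF-kB and the proteins that restrain it, measured in 4 populations of cultured mouse CD4 T cells. They were taken as all probe sets whose single platform symbol is 1 of 10 members: Nfkb1, Nfkb2, Rel, Rela, Relb, Nfkbia, Nfkbie, Nfkbiz, Bcl3 and Tnfaip3. This gave 18 of the 45101 probe sets on the array, for 9 of the 10 members and of 18193 genes with a probe set of their own. Nfkb1 had no such probe set and was not analysed here.

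The donors of all 4 populations were C57BL/6 mice aged 8 to 10 weeks, and the tissues used were spleen and lymph nodes. Th0 and Th17 were grown from naive CD4 T cells, Th0 without polarisation and Th17 under Th17 conditions, which favour IL-17 production. exFoxp3Th17 and Treg were grown from Foxp3+ CD4 T cells, the first under the Th17 condition and the second with IL-2. Sorting after culture used GFP for IL-17 and APC for Foxp3. Th17 and exFoxp3Th17 were IL-17+Foxp3-, Th0 was IL-17-Foxp3-, and Treg was IL-17-Foxp3+. Each population has 1 array, made from 1 µg of total RNA. The number of arrays limits the precision, no spread between cultures or animals can be given, and no difference below was tested.

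NF-kB is a family of transcription factors that bind DNA as dimers of Rel-type subunits. In a resting T cell, inhibitors of the IkB type hold the dimers in the cytoplasm. Signals from the antigen receptor, from CD28 or from TNF and IL-1 type receptors activate the IkB kinases, the inhibitor is degraded and the dimer enters the nucleus. A second, slower route processes the Nfkb2 product and acts mainly through Relb. Several of the inhibitors are themselves NF-kB target genes, which closes a negative feedback loop.

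The values are MAS5 signals, which are linear and in arbitrary units. Any value under a floor of 12.1, which is the pooled median of the non-control probe sets, was raised to that floor before ratios were taken. Calls of higher or lower required a 2-fold difference between 2 arrays. The probe set with the highest mean log2 signal stood for its gene. By that probe set all 9 measured members lay above the floor on all 4 arrays, and 17 of the 18 member probe sets did so.

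Of 7 members with a promoter in the RefSeq table (build GRCm38.p6), 5 held the kappaB consensus within the 250 bases before an annotated start. The consensus is the 10-letter sequence bound by NF-kB dimers. It was searched on both strands, and overlapping matches were merged. Across all genes of the table, 8.23% held a match in the same window. The windows of Nfkb2, Rel, Nfkbia, Nfkbie and Tnfaip3 are shown because each holds a match directly before the gene. They are written 5′ to 3′ on the strand of the gene, with the matches in capitals. All lie directly upstream of the gene's annotated start: Nfkb2 at chr19:46304487-46304736 on the plus strand, Rel at chr11:23770970-23771219 on the minus strand, Nfkbia at chr12:55492648-55492897 on the minus strand, Nfkbie at chr17:45555450-45555699 on the plus strand and Tnfaip3 at chr10:19015411-19015660 on the minus strand.
Nfkb2: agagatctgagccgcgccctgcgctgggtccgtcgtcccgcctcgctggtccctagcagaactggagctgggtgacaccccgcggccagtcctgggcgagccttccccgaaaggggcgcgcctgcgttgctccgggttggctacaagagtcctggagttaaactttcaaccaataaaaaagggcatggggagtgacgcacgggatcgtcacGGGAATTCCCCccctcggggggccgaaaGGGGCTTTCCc
Rel: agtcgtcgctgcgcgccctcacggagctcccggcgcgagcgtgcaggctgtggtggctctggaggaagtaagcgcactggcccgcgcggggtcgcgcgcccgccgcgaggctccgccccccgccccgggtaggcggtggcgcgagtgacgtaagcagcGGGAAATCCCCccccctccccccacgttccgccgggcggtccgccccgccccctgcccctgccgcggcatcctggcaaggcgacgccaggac
Nfkbia: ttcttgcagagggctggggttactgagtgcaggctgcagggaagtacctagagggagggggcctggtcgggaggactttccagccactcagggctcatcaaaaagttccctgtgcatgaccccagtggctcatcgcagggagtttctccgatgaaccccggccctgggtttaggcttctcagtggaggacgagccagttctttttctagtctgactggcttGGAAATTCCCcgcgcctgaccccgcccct
Nfkbie: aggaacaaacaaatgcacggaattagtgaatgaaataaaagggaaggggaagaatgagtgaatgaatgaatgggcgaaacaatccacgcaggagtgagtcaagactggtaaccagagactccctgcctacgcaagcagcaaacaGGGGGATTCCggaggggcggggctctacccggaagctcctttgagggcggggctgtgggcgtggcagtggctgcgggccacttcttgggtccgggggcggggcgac
Tnfaip3: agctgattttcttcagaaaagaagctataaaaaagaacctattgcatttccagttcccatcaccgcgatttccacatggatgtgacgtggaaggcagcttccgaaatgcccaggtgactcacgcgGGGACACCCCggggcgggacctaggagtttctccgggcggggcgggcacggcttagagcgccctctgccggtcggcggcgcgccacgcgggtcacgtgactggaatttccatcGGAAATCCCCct
The match of Nfkbia begins 29 bases before the start, and those of Rel and Nfkbie begin 92 and 106 bases before it. Nfkb2 has matches that begin at -39 and -11, and Tnfaip3 at -125 and -12. Nfkb2 has 3 annotated starts and Tnfaip3 has 2; the window with the most matches is shown. The single windows of Rela and Bcl3 held no match, and Nfkb1, Relb and Nfkbiz had no entry. A match describes the letters of the sequence, and binding was not measured.

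**Figure D1:**
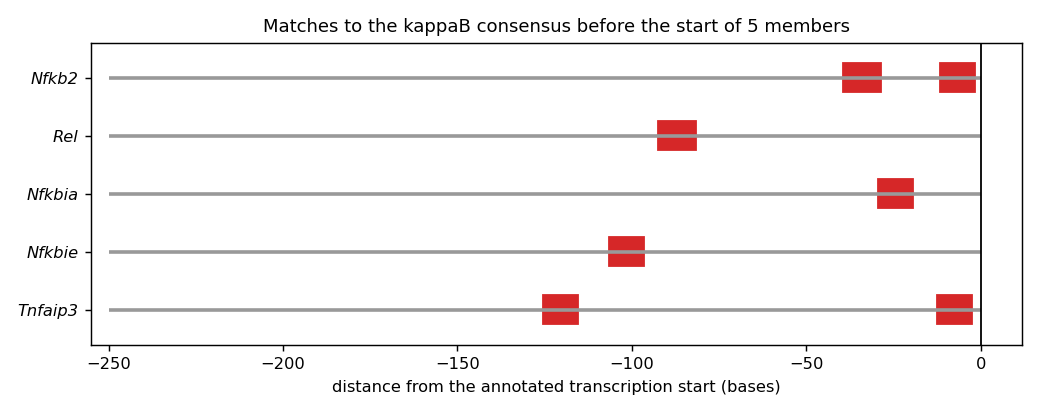
Position of matches to the kappaB consensus (red boxes) in the 250 bases before the annotated start (vertical line at 0) of 5 members. Nfkb2 and Tnfaip3 each have 2 separate stretches, and the nearest to the start lie within 12 bases of it.

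Markers of the labelled cells and of other cell types were read before the members. All 9 measured CD4 T cell markers lay above the floor on every array, with summed signals of 13428 to 16926. Cd4 itself was a small part of that sum. By its brighter probe set it read 109.6 in Th0, 48.3 in Treg, 81.2 in Th17 and 98.1 in exFoxp3Th17. Markers of B cells (5 measured, summed signal 18.7 to 69.8), of monocytes, macrophages or neutrophils (6, 37.2 to 61.0), of dendritic cells (4, 15.3 to 41.4) and of NK cells (2, 3.06 to 27.5) were near or below the floor. The B cell gene Cd79b, at 55.6 on the Treg array, was the brightest of these. Cd8b1 reached 83.5 on the Th17 array, near the signal of Cd4 there, and Cd8a did not exceed 14.3. Foxp3 was at 584.9 in Treg and below the floor elsewhere, whereas Il17a was below the floor on all 4 arrays, the IL-17+ ones included. The exFoxp3Th17 array also stood apart in sex-linked RNA, with Xist at 3766 against at most 10.8 elsewhere and Eif2s3y at 4.66 against at least 654.5. In exFoxp3Th17 against Th17 this difference cannot be told apart from cell origin, and in exFoxp3Th17 against Treg it cannot be told apart from the Th17 condition.

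By the probe set that stands for each gene, Nfkb2, Relb, Nfkbia, Nfkbie and Tnfaip3 were higher on both Th17-condition arrays than on both other arrays, which is 5 of 9. Of all 11769 genes above the floor on at least 1 array, 19.2% showed that order. None of the members showed the opposite order, which 19.5% of genes did. As these are bulk samples, fewer cells that express a gene and less RNA per cell cannot be told apart.

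Among the DNA-binding subunits, Relb differed the most and Rela the least. Relb encodes the partner through which the slower NF-kB route mainly acts. Its signal was 54.6 in Th0, 27.2 in Treg, 131.9 in Th17 and 152.9 in exFoxp3Th17. The Th17-condition arrays were thus 2.42-fold above Th0 for the naive-derived cells and 5.63-fold above Treg for the Foxp3-derived cells. Treg was the lowest array, 2.01-fold below Th0, a difference at the 2-fold limit that was no longer called with quantile normalization (log2 ratio -0.85 against -1.01), with equal array medians (-0.95) or with the floor added as a pseudocount (-0.76).

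Nfkb2 encodes the precursor that the slower route processes into a DNA-binding subunit. Its brighter probe set read 30.8 in Th0, 44.7 in Treg, 81.3 in Th17 and 83.8 in exFoxp3Th17, and the 2 Th17-condition arrays lay together at the top. Th17 was 2.64-fold above Th0, and exFoxp3Th17 was 1.87-fold above Treg, short of a call. The other probe set, of a type that can also bind related transcripts, read 31.2, 42.0, 39.0 and 77.7 in the same order. It put Th17 at 1.25-fold above Th0, and exFoxp3Th17 at 1.85-fold above Treg.

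Rel, the gene of c-Rel, is a subunit prominent in lymphocytes and used in Foxp3 induction. It read 29.2 in Th0, 57.8 in Treg, 48.4 in Th17 and 36.3 in exFoxp3Th17, and was the only subunit that was highest in Treg. Its 1.98-fold difference between Treg and Th0 missed the 2-fold limit. Rela, which encodes the main transactivating subunit of the fast route, read 382.1 in Th0, 372.2 in Treg, 362.1 in Th17 and 408.4 in exFoxp3Th17. Its highest and lowest arrays differed by 1.13-fold.

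Of the inhibitors that hold dimers in the cytoplasm, Nfkbie was called higher in exFoxp3Th17 than in Treg, and neither was called between Th17 and Th0. Nfkbia encodes IkB-alpha, the inhibitor that is degraded and then made again within a round of signalling. By its brightest probe set it read 2134 in Th0, 2700 in Treg, 4109 in Th17 and 3975 in exFoxp3Th17. Th17 lay 1.93-fold above Th0 and exFoxp3Th17 1.47-fold above Treg, both under the limit; the first was called with quantile normalization (log2 ratio 1.04) or with its probe sets averaged (1.15). All 5 Nfkbia probe sets were higher on both Th17-condition arrays than on the others. They differed in size: 2 of them put Th17 at 3.24-fold and 3.31-fold above Th0, and the remaining ones at 1.56-fold to 1.93-fold.

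Nfkbie encodes IkB-epsilon, a relative of Nfkbia with a similar role. Its brighter probe set read 208.5 in Th0, 208.8 in Treg, 406.4 in Th17 and 471.4 in exFoxp3Th17. The Th0 and Treg arrays were level, and both Th17-condition arrays lay above them, by 1.95-fold for Th17 and by 2.26-fold for exFoxp3Th17. The dimmer probe set read 35.8, 40.9, 72.3 and 63.1 in the same order, with Th17 at 2.02-fold and exFoxp3Th17 at 1.54-fold.

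Tnfaip3 encodes a ubiquitin-editing enzyme that shuts down signalling upstream of the IkB kinases. It read 120.7 in Th0, 112.2 in Treg, 343.9 in Th17 and 372.6 in exFoxp3Th17. As with Nfkbie, the arrays formed a high and a low pair: Th17 was 2.85-fold above Th0 and exFoxp3Th17 3.32-fold above Treg. Its second probe set was dim and above the floor only in Th17 (18.8).

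The nuclear IkB proteins, which enter the nucleus and change what NF-kB does at its target genes, went their own ways. Bcl3, a partner of the subunits made from Nfkb1 and Nfkb2, read 55.7 in Th0, 384.6 in Treg, 376.3 in Th17 and 464.3 in exFoxp3Th17. Th0 was the array that stood apart: Th17 was 6.75-fold and Treg 6.90-fold above it, while exFoxp3Th17, the highest array, was 1.23-fold above Th17 and 1.21-fold above Treg. Bcl3 had the widest range of the members, 8.33-fold. It was also the only member with both Foxp3-derived arrays above both naive-derived ones, an order that 8.58% of all genes showed, but Treg and Th17 were nearly level, and with equal array medians Rela had the same order. No member showed the opposite order, found in 6.99% of genes.

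Nfkbiz encodes IkB-zeta, a nuclear cofactor known for its part in Th17 differentiation. Its brightest probe set read 429.5 in Th0, 461.6 in Treg, 894.2 in Th17 and 303.2 in exFoxp3Th17. Th17 was the high array, 2.08-fold above Th0, and exFoxp3Th17 was the lowest, 2.95-fold below Th17 and 1.52-fold below Treg. The probe sets of this gene did not show 1 pattern. A second read 213.5 in Th0, 150.7 in Treg, 79.0 in Th17 and 61.1 in exFoxp3Th17, with Th17 2.70-fold below Th0. The third stayed between 49.7 and 69.7. Of 4360 genes with at least 2 probe sets above the floor on all arrays, 10 (0.229%) had probe sets called in opposite directions between Th17 and Th0, and Nfkbiz was among them. On all 3 probe sets exFoxp3Th17 was below Th17, by 1.15-fold and 1.29-fold on those that were not called.

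**Figure D2:**
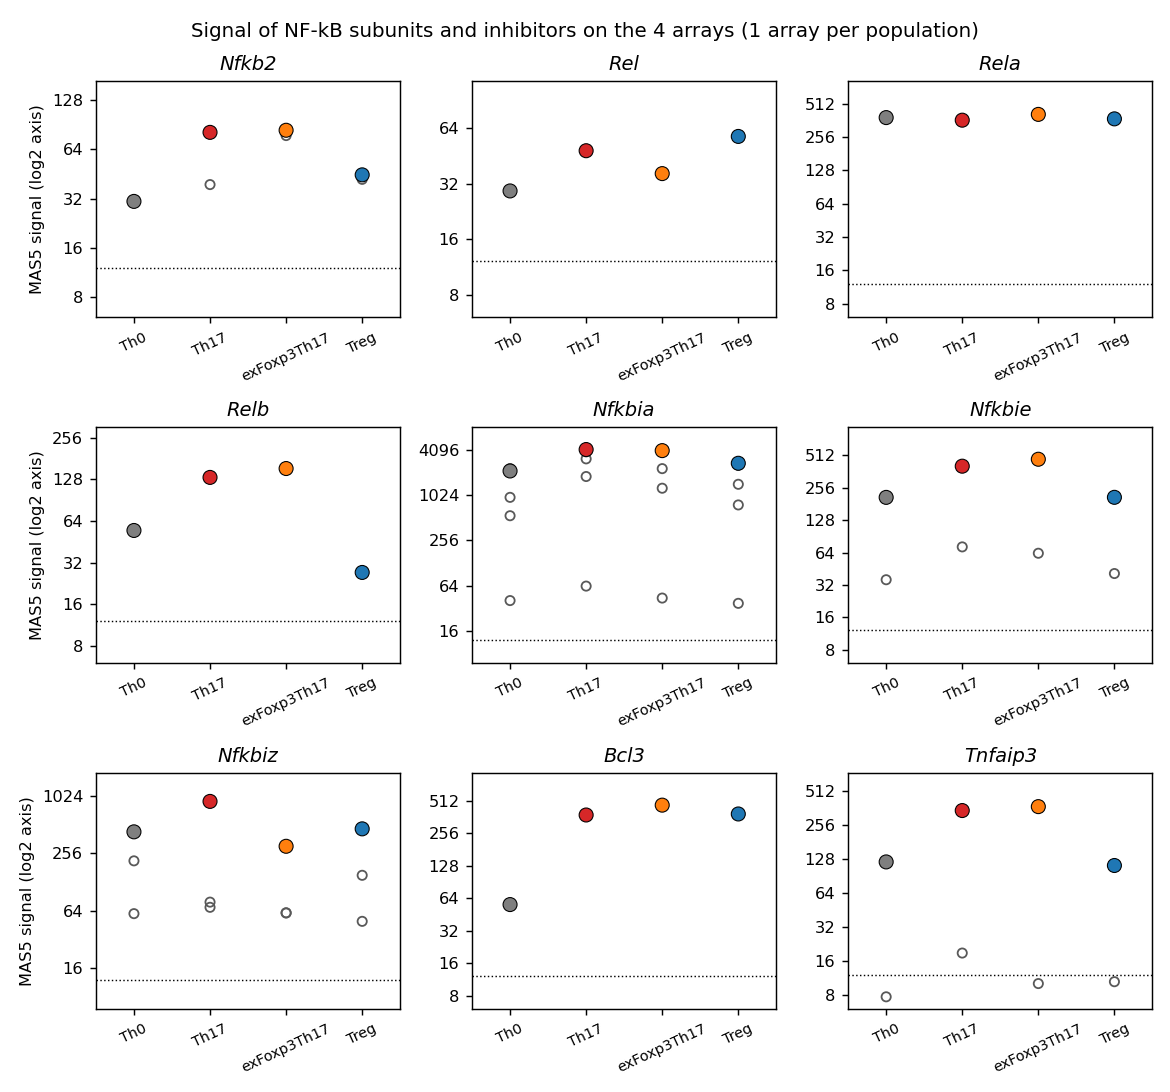
MAS5 signal (log2 axis, arbitrary units) of the 9 measured members on the 4 arrays. Filled points are the probe set that stands for the gene, open points its other probe sets, and the dotted line is the floor of 12.1. Relb, Nfkbie and Tnfaip3 are high in Th17 and exFoxp3Th17, Bcl3 is low in Th0 alone, and the filled points of Nfkbiz are lowest in exFoxp3Th17.

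Th17 against Th0 asks how the Th17 condition, with the IL-17 gate, changed naive-derived cells. Of the 9 members, 5 were higher (Bcl3, Tnfaip3, Nfkb2, Relb and Nfkbiz) and none was lower, where 8.22% of all genes were higher and 6.88% lower. The median log2 ratio of the members was 1.06, and that of all genes was -0.02. By probe set, 8 of 18 were higher and 1, of Nfkbiz, was lower, against 7.60% and 7.54% of 22012 single-gene probe sets above the floor. Only Rela had a log2 ratio below 0 (-0.08). With the probe sets of a gene averaged, Nfkb2 (log2 ratio 0.86) and Nfkbiz (-0.05) were not called, and Nfkbiz fell just short (0.998) with equal array medians. A log2 ratio of 1 is a 2-fold difference.

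exFoxp3Th17 against Treg asks the same of Foxp3-derived cells, although here the control culture held IL-2 and the Foxp3 gate changed. The sex-linked RNA differed as well. Relb, Tnfaip3 and Nfkbie were higher, 3 of 9, and none was lower, where 11.3% of genes were higher and 9.94% lower. The member median was 0.56 and that of all genes was 0.02. Rel (-0.67) and Nfkbiz (-0.61) had ratios below 0 that were not called. With probe sets averaged, Tnfaip3 (0.87) and Nfkbie (0.90) were not called. Relb and Tnfaip3 were called higher in this comparison and in Th17 against Th0, as were 2.47% of all genes. These comparisons share no array.

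Treg against Th0 compared the IL-17-negative populations. Bcl3 was higher and Relb lower, 1 of 9 each, where 5.56% of genes were higher and 4.95% lower. The member median of 0.10 lay near that of all genes (-0.01), and the values ran from -1.01 for Relb to 2.79 for Bcl3. Rel, at 0.98, was the next highest, and was called higher with quantile normalization (1.16) or equal array medians (1.04).

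exFoxp3Th17 against Th17 held the culture and the gate and changed the precursor, and the sex-linked RNA differed too. Here Nfkbiz was lower, no member was higher, and the other 8 had log2 ratios between -0.41 for Rel and 0.30 for Bcl3. Nfkbiz was not called with its probe sets averaged (-0.71). Of all genes 7.48% were higher and 7.27% lower, and with 9 members counts of 1 lower and none higher lie near those shares. The member median was 0.12 against 0.03 for all genes. By probe set, 1 of 18 was lower and none higher, against 6.68% and 7.23%; the dimmer probe set of Nfkb2 reached 1.99-fold. To describe the noise within arrays, the log2 ratio of a gene's second probe set was subtracted from that of its brightest. Over 4360 genes the robust SD of this difference was 0.38 here.

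**Figure D3:**
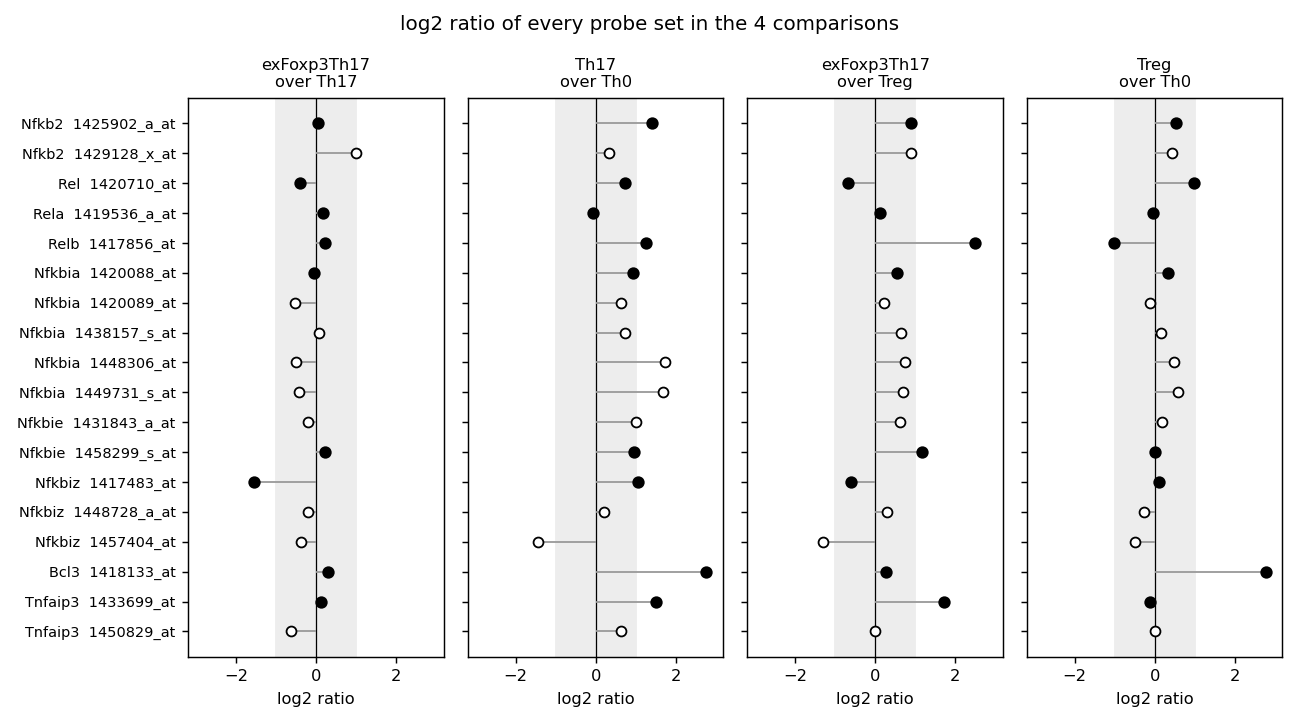
log2 ratio of each of the 18 member probe sets in the 4 comparisons. Filled points stand for the gene, open points are other probe sets, the grey band is less than 2-fold, and values below the floor were set to it, so the second Tnfaip3 probe set sits at 0 where both arrays were below. In exFoxp3Th17 over Th17 a single point, of Nfkbiz, lies outside the band, and in Th17 over Th0 8 points lie to its right.

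Among known NF-kB target genes, many were lower in exFoxp3Th17 than in Th17. A list of 31 target genes, which shares Relb with the members, had 27 above the floor on at least 1 array. Between Th17 and Th0, 15 were higher and none lower, with a median log2 ratio of 1.19; of all genes, 8.22% were higher and 6.88% lower. Between exFoxp3Th17 and Th17, none was higher and 12 were lower, with a median of -0.55; of all genes, 7.48% were higher and 7.27% lower. Those with the largest differences were Il2ra, Ier3, Tnf and the TNF-family receptor Tnfrsf9 (at least 13.9-fold). The 2 comparisons share the Th17 array.

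Ccnd2, the cyclin D2 gene of G1 progression, read 1693 in Th0, 2273 in Treg, 1959 in Th17 and 622.7 in exFoxp3Th17. It was lowest in exFoxp3Th17, 3.15-fold below Th17. Cd69, an early activation marker, read 323.7, 317.3, 737.7 and 131.0 in the same order, 5.63-fold lower in exFoxp3Th17 than in Th17. Myc, a driver of growth, read 566.9, 527.3, 986.1 and 222.2, 4.44-fold lower. These 3 genes, in part chosen after their values were seen, were lowest in exFoxp3Th17. Not every target gene was: Ier3 was lowest in Th0 (18.0, against 56.1 in exFoxp3Th17). By the probe set that stands for the gene, the members Nfkbiz (-1.56), Rel (-0.41) and Nfkbia (-0.05) also had log2 ratios below 0 between exFoxp3Th17 and Th17. The other 6 members had ratios above 0. Further probe sets of Nfkbia (-0.53, -0.52 and -0.43), Nfkbie (-0.20) and Tnfaip3 (-0.64, with exFoxp3Th17 below the floor) lay below 0. Those of Nfkb2 (0.995) and a further one of Nfkbia (0.07) lay above it.

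Against Treg, 13 of the 27 target genes were lower in exFoxp3Th17 and 2 were higher, Relb and the homing receptor Ccr7 (5.40-fold, 1357 against 251.3); of all genes, 9.94% were lower and 11.3% higher. Between Treg and Th0, 11 were higher and 2 lower, again Ccr7 and Relb, where 5.56% of all genes were higher and 4.95% lower. Target genes that stood near the Th17 level in exFoxp3Th17 included Birc3, an anti-apoptotic ubiquitin ligase (503.4 in Th0, 799.4 in Treg, 1479 in Th17, 1285 in exFoxp3Th17), and Gadd45b, a stress-response gene (40.6, 165.1, 169.2 and 160.6). Of 24 target genes outside the members with a promoter entry, 7 (29.2%) held the kappaB consensus in the 250-base window.

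Among the other inhibitors of the pathway, Tnip2, Zc3h12a and Rnf11 were called higher in Th17 than in Th0 and in exFoxp3Th17 than in Treg, and Tnip1 in the second alone. Of 12 measured, 3 were higher in Th17 than in Th0, 4 were higher in exFoxp3Th17 than in Treg, and none was lower in either; none was called in the remaining comparisons. Of all genes, 8.22% and 11.3% were higher and 6.88% and 9.94% lower in the first 2 comparisons. In exFoxp3Th17 against Th17, 7.48% of all genes were higher and 7.27% lower, and in Treg against Th0 5.56% and 4.95%. With 12 genes, each count of none lies near those shares. Tnip2, which encodes a partner of the Tnfaip3 enzyme, read 21.5 in Th0, 31.6 in Treg, 146.1 in Th17 and 157.0 in exFoxp3Th17. It formed the same high and low pairs as Tnfaip3, at 6.78-fold and 4.97-fold. Zc3h12a, whose product degrades cytokine mRNAs, was also low in Th0 (34.1) and Treg (26.3), with Th17 2.94-fold above the first and exFoxp3Th17 (80.8) 3.07-fold above the second, although its second probe set put Th17 over Th0 at a log2 ratio of 0.88 and exFoxp3Th17 over Treg at 0.57. Tnip1, the other partner, was highest in exFoxp3Th17 (576.8, 369.7, 602.1 and 1050). The remaining IkB genes were not called in any comparison: Nfkbib stayed between 88.5 and 110.4, and Nfkbid between 70.0 and 104.0.

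A further list held the IkB kinase complex and upstream kinases, adaptors and ubiquitin ligases. Of its 18 measured genes, 3 were higher (Birc3, Map3k7 and Traf6) and 3 lower (Traf5, Ikbke and Ikbkb) in Th17 than in Th0. Of all genes, 8.22% were higher and 6.88% lower. In Treg against Th0, Map3k7 was higher and Ikbke, Traf5 and Ikbkb were lower, where 5.56% and 4.95% were. These calls rest on the probe set that stands for each gene. Most of the 5 other probe sets of Map3k7 and of the 4 of Ikbkb were under 2-fold in both comparisons. Some of those of Map3k7 had log2 ratios below 0 in both. A further Ikbkb probe set was above 0 in Treg against Th0. In exFoxp3Th17, 2 of the 18 were higher than in Treg and 2 higher than in Th17, and none was lower in either comparison. Of all genes, 11.3% and 7.48% were higher, and 9.94% and 7.27% lower. With 18 genes, a count of 2 higher lies near those shares. By its brightest probe set Ikbkb, the kinase subunit that phosphorylates Nfkbia, was highest in Th0 (939.1, against 422.1 in Th17, 500.1 in exFoxp3Th17 and 458.7 in Treg). Its scaffold subunit Ikbkg stayed between 164.4 and 217.2, and Map3k14, the kinase of the slower route, between 33.9 and 58.8. Chuk was not analysed here. Ikbke, a related kinase, fell into other pairs: 504.5 in Th0 and 461.9 in exFoxp3Th17, against 188.5 in Th17 and 188.8 in Treg.

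On the antigen receptor route, Malt1 and Map3k8 were the only genes called among the 7 measured. Both were higher in Th17 than in Th0 and none was lower, where 8.22% of all genes were higher and 6.88% lower. Against Treg, Malt1 was higher in exFoxp3Th17 and Map3k8 lower, where 11.3% were higher and 9.94% lower. Map3k8 alone was lower in exFoxp3Th17 than in Th17, where 7.27% were. None was called between Treg and Th0. With 7 genes, a count of 1 lies near such shares. Malt1, a protease and scaffold of the complex that links the receptor to the IkB kinases, read 366.1 in Th0, 581.7 in Treg, 1836 in Th17 and 1213 in exFoxp3Th17. Like Relb and Tnfaip3, it was called higher in Th17 over Th0 (5.01-fold) and in exFoxp3Th17 over Treg (2.09-fold). Both further probe sets were past 2-fold in the same direction. Map3k8, a kinase held by the Nfkb1 product, was ordered at its ends like the brightest probe set of Nfkbiz. It read 183.0, 296.5, 525.2 and 82.1, highest in Th17 and lowest in exFoxp3Th17, 6.40-fold below Th17.

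**Figure D4:**
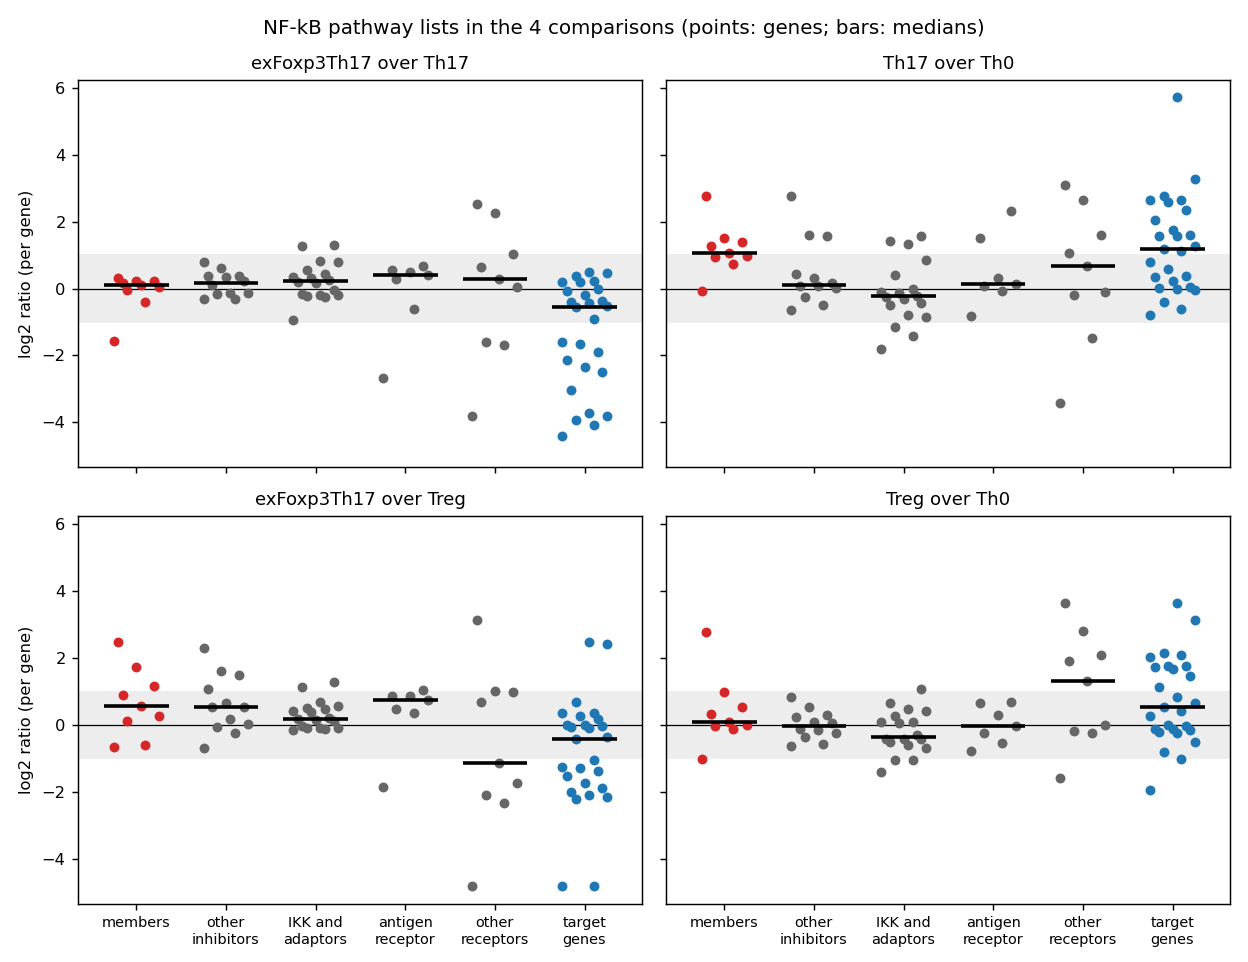
log2 ratio per gene (points) and list median (bars) for the members and 5 pathway lists in the 4 comparisons; the grey band is less than 2-fold, and values below the floor were set to it. The members and the target genes have medians of 1.06 and 1.19 in Th17 over Th0, and of 0.12 and -0.55 in exFoxp3Th17 over Th17.

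Genes with the pattern most like that of Bcl3, the member with the widest range, were sought among 9220 genes above the floor on all 4 arrays. Likeness was the root mean square difference of log2 signal after centring each gene on its mean over the 4 arrays. The nearest were Rnase4 (0.16), Acvr1 (0.17), Stx11 (0.17), Ikzf4 (0.18) and Pmaip1 (0.24). Ikzf4, a transcription factor of regulatory T cells, read 59.6 in Th0, 292.4 in Treg, 318.1 in Th17 and 383.3 in exFoxp3Th17. Pmaip1, which encodes a pro-apoptotic BCL2-family protein, read 53.7, 418.4, 270.1 and 489.1. Each of these genes was, like Bcl3, lowest in Th0, which follows from how they were chosen.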

How the data were processed

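RNA of 4 cell populations was hybridised to Affymetrix arrays, 1 array each. The values the authors deposited are signal intensities on a linear scale, and the submitters' processing notes name MAS5, without a version. The mean of each array, with 2% of probe sets trimmed at either end, was the same, so this scaling was kept. Scanner files and detection calls were not used here.

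Names came from the platform annotation, updated through gene identifiers in a RefSeq table of GRCm38.p6. Of the non-control probe sets, 34945 have 1 symbol, 932 several and 9160 are unnamed here; only the first kind was used, and 34741 of them matched the table. The floor, the 2-fold rule, the 4 comparisons and the choice of probe set are given with the results. With 1 array per group there is no test and no spread between samples. Percentages of all genes use the 11769 genes above the floor on at least 1 array. Calling was tested on simulated data with an assumed noise and with changes placed only in brighter genes. That run does not measure the error of the calls made here. Analyses used Python 3.11.15, numpy 2.4.6 and pandas 2.3.3.

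The members and the pathway lists were chosen with earlier results of these data known. Named were all members, up to 4 called genes per list and comparison, 6 IkB and kinase genes whatever their values, and the 5 genes nearest the widest-ranging member, of which not all are printed. Cd4, Cd79b, Cd8a, Cd8b1, Xist, Eif2s3y, Myc, Ccnd2, Cd69, Birc3 and Gadd45b were in part chosen after their values were seen. Alternatives covered the floor, a pseudocount, the scaling, the probe set and the fold limit.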

Additional observations from a re-analysis of the deposited data

Results flagged for a closer look

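In 3 members the probe set that stands for the gene had ratios of opposite sign for Th17 against Th0 and exFoxp3Th17 against Treg. The log2 ratios were 1.06 and -0.61 for Nfkbiz, 0.73 and -0.67 for Rel, and -0.077 and 0.13 for Rela. The differences were not tested, only the first Nfkbiz ratio reached 2-fold, and the control cultures differ in IL-2 and in the Foxp3 gate. The exFoxp3Th17 and Treg arrays also differ in sex-linked RNA. The second probe set of Nfkbiz was lower under the Th17 condition in both comparisons.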

How the results depend on the processing

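No paired analysis was possible because each population has 1 array. Of 36 member ratios, 11 were 2-fold or more, and 5 of these stayed so under all 7 alternatives of floor, scaling and probe set: Relb, Bcl3 and Tnfaip3 in Th17 against Th0, Relb in exFoxp3Th17 against Treg, and Bcl3 in Treg against Th0. Relb and Bcl3 have 1 probe set each, so the alternatives of probe set could not change their ratios. A floor of 0.5 or 2 times the value used left all 36 ratios unchanged. For 4 of the 5 stable ratios only the scaling and the pseudocount could thus make a difference. The order with both Th17-condition arrays highest held 5 members under each of the 7 alternatives. Averaging the probe sets of each gene reversed Nfkbiz in Th17 against Th0 (log2 ratio -0.052). It left 0 members lower in exFoxp3Th17 than in Th17 (5.4% of all genes) and 1 higher than in Treg (8.05%). Both counts lie near those shares. Averaging also put 1 member higher on both naive-derived arrays, an order that 6.99% of genes showed without averaging. In Treg against Th0, 0 members were lower with the floor as a pseudocount (3.51% of all genes), quantile normalization (4.1%), equal medians (4.34%) or at 3-fold. In that comparison 2 members were higher with quantile normalization (6.42% of all genes), with equal medians (6.15%) or at 1.5-fold. With equal medians 2 members were higher on both Foxp3-derived arrays, an order that 8.58% of genes showed without that scaling. At 1.5-fold, 8 members were higher in Th17 than in Th0 (15.4% of all genes) and 2 lower in exFoxp3Th17 than in Treg (18.3%, near the share of members); in Treg against Th0 12% of all genes were higher. At 3-fold, 1 was higher in Th17 than in Th0 (4.04% of all genes) and 0 were lower in exFoxp3Th17 than in Th17 (2.90%); in Treg against Th0 1.44% of all genes were lower. The fold limit has no bearing on the order of pairs. The cause of changes with the scaling was not tested. The absence of replicates limits every value.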

Other observations

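Among 9 receptors that activate NF-kB and lay above the floor, exFoxp3Th17 had 3 above and 3 below their Th17 signal by 2-fold or more, and 3 above and 5 below that of Treg, where 7.48% and 7.27%, and 11.3% and 9.94%, of all genes were. In Th17 against Th0, 4 were higher and 2 lower (8.22% and 6.88% of all genes), and in Treg against Th0, 5 were higher and 1 lower (5.56% and 4.95%). Il1r1, the IL-1 receptor of Th17 cells, read 1.42 in Th0, 1.62 in Treg, 102.6 in Th17 and 106.8 in exFoxp3Th17, at least 8.48-fold and at least 8.82-fold higher under the Th17 condition. The costimulatory receptor Tnfrsf4 (OX40) read 544.2, 2320, 1658 and 548.8 in the same order, and Tnfrsf18 (GITR) read 1194, 2980, 1911 and 597.1. Both were higher in Th17 and Treg than in Th0 and exFoxp3Th17. Cd27 read 465.3, 156.0, 43.2 and 249.6, lowest in Th17. Tnfrsf1a, a TNF receptor, read 173.4, 154.5, 150.9 and 309.0, with exFoxp3Th17 2.05-fold above Th17 and 2.00-fold above Treg.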
